A study of Mus musculus with 7 samples.

Results

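The small leucine-rich proteoglycans (SLRPs) are the decorin family of secreted matrix proteins, taken here as 10 genes chosen by symbol: Dcn, Bgn and Aspn (class I), Lum, Fmod, Prelp, Kera and Omd (class II), Ogn (class III) and Podn (class V). All 10 were measured, each by 1 probe set annotated to that symbol alone, among 19938 genes on the array. RNA came from detached retinal pigment epithelium (RPE) of C57BL/6J mice, 4 samples from wild type and 3 from mice with the Mfrp rd6 mutation, a recessive allele that leads to retinal degeneration. The question of the comparison is how the mutant RPE differs from wild type. By the age field all wild-type samples were 8 weeks old and all Mfrp rd6 samples 12 weeks old, and on that version the effects of age and of genotype cannot be told apart. In the growth protocol, by contrast, Mfrp rd6 replicate 1 alone is 12 weeks old and the other samples are 8 weeks. Separate animals are not named for the replicates, so a p-value here covers only the variation among these 7 samples, possibly technical.

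SLRP proteins are curved solenoids of leucine-rich repeats that sit on collagen fibrils and limit how the fibrils grow and fuse. Some carry chondroitin or dermatan sulfate chains, some keratan sulfate, and some no such chain in many tissues. Several also bind growth factors, with decorin and biglycan best known as ligands of TGF-beta, and soluble biglycan as a ligand of toll-like receptors. In the eye they are best known from the corneal stroma and sclera, and PRELP from basement membranes.

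Within the family Dcn fell and Bgn rose in the Mfrp rd6 samples, and the other 8 members missed the threshold (limma, p adjusted over all genes and under 0.05). Over all genes 2.15% were called, 1.34% higher and 0.813% lower. Of the 10 members 5 had an unadjusted limma p under 0.05 (Dcn, Bgn, Prelp, Aspn and Podn), beside 15.4% of all genes. The median log2 change of the 10 members was -0.0029, beside -0.021 over all genes. Arrays of the groups did not overlap for 4 members (Dcn, Bgn, Aspn and Podn) and for 15.3% of all genes. All levels below are log2 values made by the authors with RMA, and all changes are log2 differences, Mfrp rd6 minus wild type.

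**Figure D1:**
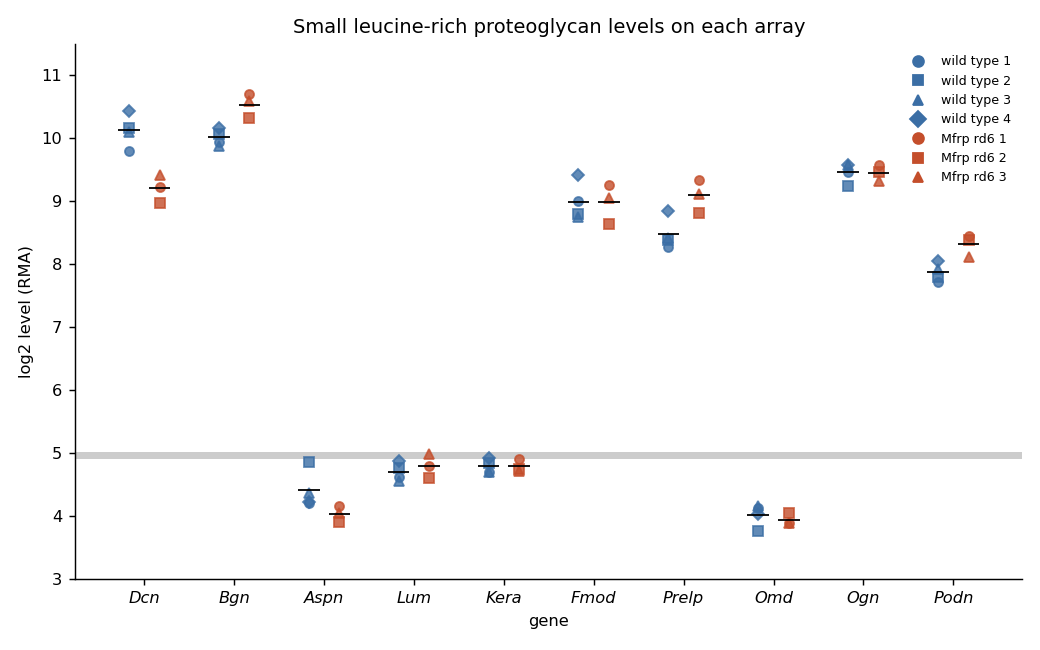
Log2 level (RMA) of the 10 SLRP genes on each array, wild type in blue (4 arrays) and Mfrp rd6 in red (3 arrays), with 1 symbol per replicate and a black line at each group mean. The grey band spans the lower quartiles of the arrays (4.90 to 5.02). Dcn is lower and Bgn higher on every Mfrp rd6 array, and Lum, Kera, Aspn and Omd lie at or below the band.

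As a check of the samples, the probe set shared by Mfrp and its neighbour C1qtnf5 read 11.22 to 11.49 in wild type and 11.09 to 11.23 in Mfrp rd6. The rd6 allele is known as a splice donor deletion, so this shared probe set does not check the genotype labels. The RPE markers Rgr, a retinal G protein-coupled receptor (13.36 in wild type and 13.27 in Mfrp rd6), and Ttr, transthyretin (13.22 and 13.28), were bright in both groups. The pellets also held transcripts of other cells, such as the basal keratin Krt5 (13.14 and 13.15). Crystallins and other lens genes stood apart on 1 array: their mean was 7.33 on Mfrp rd6 replicate 2 and 5.52 to 5.75 on the other 6 arrays. In bulk samples, fewer cells of a type and less RNA per cell cannot be told apart.

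Decorin (Dcn), the namesake of the family, binds collagen fibrils and TGF-beta and antagonises growth factor receptors such as Met and Egfr. Its level was 9.80, 10.17, 10.10 and 10.44 on wild-type replicates 1 to 4 and 9.22, 8.97 and 9.42 on Mfrp rd6 replicates 1 to 3. Every Mfrp rd6 array lay below every wild-type array. The means were 10.13 ± 0.26 (SD, n = 4) and 9.20 ± 0.23 (SD, n = 3), a change of -0.92 (SE 0.15, 95% confidence interval -1.26 to -0.59), or 1.90-fold lower (limma adjusted p = 0.0140). The direction held in all 17 alternatives, with changes of -1.10 to -0.75. Dcn missed the threshold when Mfrp rd6 replicate 1 was left out (-0.93, limma adjusted p = 0.0532). The same held when Mfrp rd6 replicate 2 was left out, alone (-0.81, limma adjusted p = 0.0550) or together with wild-type replicate 3 (-0.82, limma adjusted p = 0.111).

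Biglycan (Bgn), the closest relative of decorin, binds collagen and TGF-beta and in soluble form engages toll-like receptors. It read 9.95, 10.07, 9.88 and 10.17 on the wild-type arrays and 10.70, 10.32 and 10.59 on the Mfrp rd6 arrays, so the groups did not overlap. The respective means were 10.02 ± 0.13 (SD, n = 4) and 10.54 ± 0.20 (SD, n = 3), and the change was 0.52 (SE 0.11, 95% confidence interval 0.28 to 0.76), or 1.43-fold (limma adjusted p = 0.0405). The Bgn change was 0.43 to 0.75 in all 17 alternatives but passed in only 8 of them. It missed the threshold without wild-type replicate 1, 2 or 3 (limma adjusted p of 0.102, 0.0758 and 0.0972). In limma it also missed it with the first (0.44, adjusted p = 0.140) or the third Mfrp rd6 replicate (0.49, adjusted p = 0.121) left out, and with wild-type replicate 3 and Mfrp rd6 replicate 2 both left out (0.58, adjusted p = 0.0525).

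Since Dcn and Bgn moved in opposite directions, their log2 difference was also taken within each array, a comparison chosen after their values were seen. Dcn minus Bgn was -0.15, 0.10, 0.22 and 0.27 on the wild-type arrays and -1.48, -1.35 and -1.17 on the Mfrp rd6 arrays. The groups were far apart compared with their spread, at 0.11 ± 0.19 (SD, n = 4) and -1.33 ± 0.16 (SD, n = 3). The difference between the groups was -1.44, or 2.72-fold, and is given as a description with no test, since the pair was picked for its opposite changes. It was -1.54 to -1.37 in all 17 alternatives, and a shift common to a whole array cancels in it. The contrast describes the unequal change by which the pair was picked and adds no support to either change. Each gene keeps its own probe sensitivity.

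**Figure D2:**
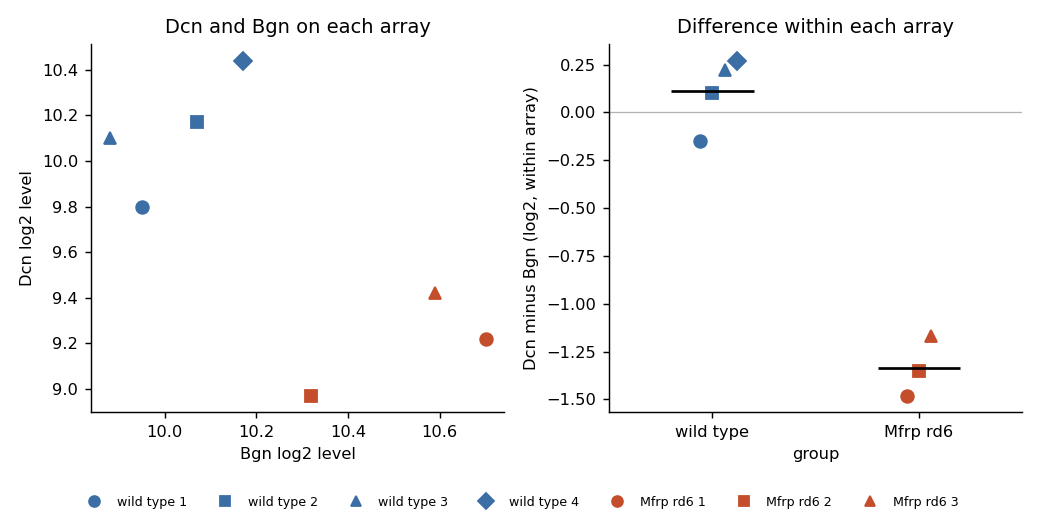
Left, Dcn log2 level against Bgn log2 level on each array. Right, Dcn minus Bgn within each array by group, with a black line at the group mean. The 3 Mfrp rd6 arrays (red) lie at -1.48 to -1.17 and the 4 wild-type arrays (blue) at -0.15 to 0.27.

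Asporin (Aspn), the remaining class I member, is a collagen-binding protein that lacks the usual attachment site for a glycosaminoglycan chain. It read 4.21, 4.85, 4.37 and 4.22 in wild type and 4.16, 3.91 and 4.04 in Mfrp rd6. All 7 values lay below the lower quartile of their array, which limits what a difference can show there. The Mfrp rd6 values were lower without overlap, but by only 0.05 between the nearest arrays, and the change of -0.38 did not pass (limma adjusted p = 0.260).

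Among the class II members, Prelp had the largest positive change without passing the test. PRELP has a basic, arginine-rich and proline-rich end that binds heparan sulfate and anchors basement membranes to collagen. Its level was 8.28, 8.39, 8.42 and 8.85 in wild type and 9.34, 8.82 and 9.12 in Mfrp rd6. The groups overlapped by a small step, with wild-type replicate 4 just above Mfrp rd6 replicate 2. The change was 0.61 (SE 0.15, 95% confidence interval 0.27 to 0.95, limma adjusted p = 0.0862). Without wild-type replicate 4 it was 0.73 and passed (limma adjusted p = 0.0335).

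Fibromodulin (Fmod), which binds collagen and steers its crosslinking, lies next to Prelp on chromosome 1. It read 9.01, 8.80, 8.75 and 9.41 in wild type and 9.26, 8.64 and 9.06 in Mfrp rd6, with full overlap. The change of -0.01 had a 95% confidence interval of -0.41 to 0.40 (limma adjusted p = 0.993). The change seen for Prelp lies outside that interval, but the interval of Prelp (0.27 to 0.95) overlaps it. The difference between these neighbours was not tested. The spread between arrays was wide in both groups (SD 0.30, n = 4, and 0.32, n = 3).

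The corneal proteoglycans of class II were dim. Lumican (Lum), needed for a transparent corneal stroma, read 4.62, 4.76, 4.55 and 4.87 in wild type and 4.79, 4.60 and 4.98 in Mfrp rd6. Every Lum value lay below the lower quartile of its array, and the groups overlapped (0.09, limma adjusted p = 0.772). Keratocan (Kera), its neighbour in the genome and in corneal function, read 4.70 to 4.92 in wild type and 4.72 to 4.91 in Mfrp rd6. Its change was 0.00 (95% confidence interval -0.19 to 0.19), and 6 of its 7 values lay below the lower quartile. Osteomodulin (Omd), a keratan sulfate proteoglycan of bone, read 3.76 to 4.16 and 3.88 to 4.05, below the lower quartile on all 7 arrays. RMA compresses changes of such dim probe sets, so a difference in these genes could have been missed.

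Osteoglycin (Ogn), also called mimecan, is the class III member and a collagen-binding proteoglycan of cornea, bone and vessel walls. It read 9.46, 9.24, 9.58 and 9.58 in wild type and 9.57, 9.46 and 9.32 in Mfrp rd6. Its arrays overlapped fully, and the change of -0.015 had a 95% confidence interval of -0.24 to 0.21 (limma adjusted p = 0.969). Changes of the size seen for Dcn or Bgn lie outside that interval. Ogn was well above the array floor while its neighbours Omd and Aspn were at the floor in the same samples.

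Podocan (Podn), the class V member, binds type I collagen and restrains smooth muscle cells. It read 7.72, 7.79, 7.93 and 8.05 on the wild-type arrays and 8.45, 8.38 and 8.12 on the Mfrp rd6 arrays. The groups did not overlap, though wild-type replicate 4 and Mfrp rd6 replicate 3 were 0.07 apart. The change of 0.44 (SE 0.11, 95% confidence interval 0.21 to 0.68) did not pass (limma adjusted p = 0.0726). It passed in 4 of 17 alternatives, among them the fit without Mfrp rd6 replicate 3 (0.54, limma adjusted p = 0.0454). With the mean of the skeletal muscle markers added as a covariate, the change of Podn was 0.19.

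**Figure D3:**
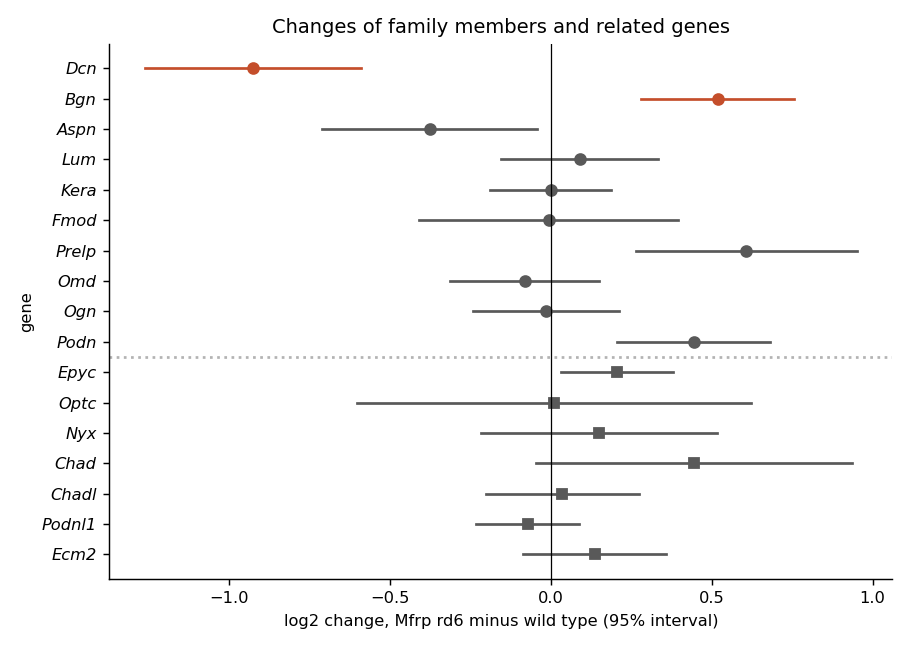
Log2 change (Mfrp rd6 minus wild type) with 95% confidence interval for the 10 SLRP genes (circles) and, below the dotted line, 7 related genes (squares). Red marks genes past the limma threshold, which are Dcn (-0.92) and Bgn (0.52), and grey marks the rest.

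Other leucine-rich proteins related to the family were read from a list of 8 genes, of which 7 were measured. Of these 0 rose and 0 fell (limma, adjusted p under 0.05), and 1 had an unadjusted p under 0.05, beside 15.4% of all genes. Epiphycan (Epyc), a cartilage member, was at the floor at 4.32 and 4.52. Opticin (Optc), a vitreous protein made by the ciliary epithelium, read 9.68 ± 0.51 (SD, n = 4) and 9.69 ± 0.44 (SD, n = 3). Nyctalopin (Nyx), an anchored protein of retinal bipolar cells, read 9.07 and 9.22. Chondroadherin (Chad), a cartilage cell adhesion protein, read 9.30 ± 0.48 and 9.74 ± 0.14, a change of 0.45 (limma adjusted p = 0.374). Chadl (0.04), Podnl1 (-0.07) and Ecm2 (0.14) differed by less.

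In the RefSeq annotation of GRCm38.p6, family genes lie side by side in 3 runs. On chromosome 10 the order of coding genes is Dcn, Lum, Kera and Epyc. The Dcn probe set fell, while those of Lum (0.09), Kera (0.00) and Epyc (0.21) were at the floor and did not pass. On chromosome 13 the order is Ecm2, Aspn, Omd and Ogn, where Ecm2, Aspn and Omd were dim and Ogn was not. On chromosome 1 Optc, Prelp and Fmod are adjacent, and all were well above the floor. Within that last run the log2 changes were 0.01 for Optc, 0.61 for Prelp and -0.01 for Fmod. The difference in change between neighbours was not tested.

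The sequences upstream of the transcription start are shown for the called riser Bgn (0.52). Those of Prelp (0.61) and Podn (0.44) are also shown, whose positive changes did not pass. They come from the RefSeq promoter table of GRCm38.p6, in which 8 of the 10 members had an entry (all but Dcn and Lum), and give the 150 bases before the start, 5′ to 3′ on the strand of the gene. Capitals mark the GC box GGGCGG, searched on both strands with overlaps allowed.
Bgn, chrX:73483451-73483600, plus strand: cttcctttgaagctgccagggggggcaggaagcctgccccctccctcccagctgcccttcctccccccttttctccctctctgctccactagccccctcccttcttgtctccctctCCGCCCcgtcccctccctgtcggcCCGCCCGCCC
Prelp, chr1:133921402-133921551, minus strand: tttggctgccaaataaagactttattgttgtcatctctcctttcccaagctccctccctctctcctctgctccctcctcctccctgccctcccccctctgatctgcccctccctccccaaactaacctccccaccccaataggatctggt
Podn, chr4:108031955-108032104, minus strand: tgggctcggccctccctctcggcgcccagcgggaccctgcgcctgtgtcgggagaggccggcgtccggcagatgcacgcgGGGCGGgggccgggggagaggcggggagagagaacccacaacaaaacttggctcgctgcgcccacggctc
Over the 250 bases before the start, Bgn held 3 GC boxes, Podn 2 at this start and 0 at its other listed start, and Prelp 0. Of all 32851 promoters in the table, 32.7% held at least 1. The letters of the TATA box, TATAAA, were found upstream of Aspn and Ogn but not of these 3 genes, and in 12.4% of all promoters. Neither Aspn nor Ogn had a match within the 150 bases before the start. The AP-1 site TGANTCA was found in 0 of the 9 member windows and in 6.75% of all. The G and C content was 64.4% for Bgn, 55.6% for Prelp and 78.0% for Podn, with a median of 52.4% over all promoters. These matches describe letters in the windows and do not show binding.

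Among the brighter members, Dcn, Bgn, Fmod and Prelp tended to be high or low on the same arrays within a group, and Ogn and Podn followed them less. Wild-type replicate 4 was the highest wild-type array, or tied for it, for all 6 members above the floor (Dcn, Bgn, Fmod, Prelp, Ogn and Podn). Mfrp rd6 replicate 2 was the lowest of its group for 4 of these 6. After each group's mean was subtracted, the correlation over the 7 arrays was 0.71 for Dcn with Bgn, 0.86 for Bgn with Prelp and 0.89 for Fmod with Prelp. It was -0.02 for Dcn with Ogn, the lowest of the 15 pairs. Pairs among Dcn, Bgn, Fmod and Prelp ranged from 0.59 to 0.89. Pairs of Ogn or Podn with these genes ranged from -0.02 to 0.55, and Ogn with Podn was at 0.76. Dcn and Bgn thus tended to vary together within the groups (r = 0.71, not tested) but changed oppositely between them. These are descriptions over 7 arrays that share their normalization. Among 12723 other genes with a mean level of at least 6, those most like the mean of the 10 members over the 7 arrays were the C1 inhibitor Serping1 (r = 0.95), the chloride channel subunit Bsnd (0.94), the hedgehog transcription factor Gli3 (0.93), the potassium-chloride cotransporter Slc12a7 (0.93) and Zswim6 (0.93). With group means subtracted they were Slx1b (0.99), Serping1 (0.98), the Ras-like protein Rerg (0.97), Fam214a (0.97) and the adenylyl cyclase Adcy6 (0.97). Both sets are the highest correlations among 12723 genes over only 7 arrays, so high values can arise by chance. None of these 9 genes passed the limma threshold. The member mean itself differed by only 0.026 between the groups, so genes that follow its levels could hardly pass.

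Of the enzymes that build the sugar chains of SLRPs, a pair of keratan sulfate sulfotransferases rose. Among 12 genes of keratan sulfate synthesis 2 rose and 0 fell, beside 2.15% called over all genes. Of these 12, 3 had an unadjusted p under 0.05, and the median change was -0.06. Chst1, which sulfates galactose in keratan sulfate, read 7.11, 6.91, 6.90 and 6.98 in wild type and 7.87, 7.95 and 7.57 in Mfrp rd6. That is a rise of 0.82 without overlap (SE 0.10, limma adjusted p = 0.00322), and it passed in all 7 fits that left out 1 array. Chst2, which sulfates N-acetylglucosamine, rose from 7.96 ± 0.10 (SD, n = 4) to 8.58 ± 0.23 (SD, n = 3), by 0.62 (limma adjusted p = 0.0216). Chst2 missed the threshold without wild-type replicate 2 (0.58, adjusted p = 0.0600) or 3 (0.60, adjusted p = 0.0610), and when the first Mfrp rd6 replicate was dropped (0.66, limma adjusted p = 0.0577). Among 22 genes of chondroitin and dermatan sulfate synthesis 0 rose and 0 fell (limma, adjusted p under 0.05), and 2 had an unadjusted p under 0.05, beside 15.4% of all genes. The brightest of them, the xylose kinase Fam20b, read 10.11 and 10.06. The difference between the 2 lists was not tested.

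Collagens that SLRPs bind did not pass. Of 13 genes 0 rose and 0 fell (limma, adjusted p under 0.05), beside 2.15% called over all genes. An unadjusted p under 0.05 was found for 2 of them, beside 15.4% of all genes, and the median change was -0.03. Col1a1, the main chain of type I collagen, read 7.78 ± 0.07 (SD, n = 4) and 7.55 ± 0.04 (SD, n = 3), a change of -0.23 (limma adjusted p = 0.146).

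Of 17 measured genes of collagen crosslinking and fibril assembly, 3 rose and 1 fell, beside 2.15% called over all genes. An unadjusted p under 0.05 was found for 5 of them, beside 15.4% of all genes. Thbs1, the matricellular protein thrombospondin-1 that activates latent TGF-beta, rose from 11.86 ± 0.22 (SD, n = 4) to 12.57 ± 0.06 (SD, n = 3), by 0.71 (limma adjusted p = 0.0137). Pcolce, which speeds removal of the procollagen end by BMP1, rose by 0.50 (limma adjusted p = 0.0104). Among the lysyl oxidases Loxl1, tied to elastic fibres, rose by 0.40 (limma adjusted p = 0.0328). Loxl4 fell from 8.65 ± 0.10 to 7.85 ± 0.25, by 0.80 on the log2 scale (limma adjusted p = 0.00806). Lox (-0.07) and Loxl3 (0.04) did not pass (limma adjusted p of 0.825 and 0.887). Loxl4 passed in all 7 fits that left out 1 array. Leaving out Mfrp rd6 replicate 1 ended the calls of Thbs1 (0.69, limma adjusted p = 0.0580) and Pcolce (0.47, limma adjusted p = 0.0507), and leaving out replicate 2 that of Thbs1 (0.70, limma adjusted p = 0.0542). Loxl1 passed in 1 of those 7 fits, the one without wild-type replicate 3, with 0.37 to 0.46 over all 7. The count fell from 4 to 1 without Mfrp rd6 replicate 1 and to 2 without Mfrp rd6 replicate 2.

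Of 28 ligands, receptors and proteases known to act with SLRPs, 0 rose and 1 fell, beside 2.15% called over all genes. The median change was -0.01, and 7 of the 28 had an unadjusted p under 0.05, beside 15.4% of all genes. Bmp2, a bone morphogenetic protein, read 9.39, 9.32, 9.36 and 9.38 in wild type and 8.95, 8.83 and 8.71 in Mfrp rd6. It fell by 0.53 on the log2 scale (SE 0.07, limma adjusted p = 0.00696), without overlap, and passed in all 7 fits that left out 1 array.

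**Figure D4:**
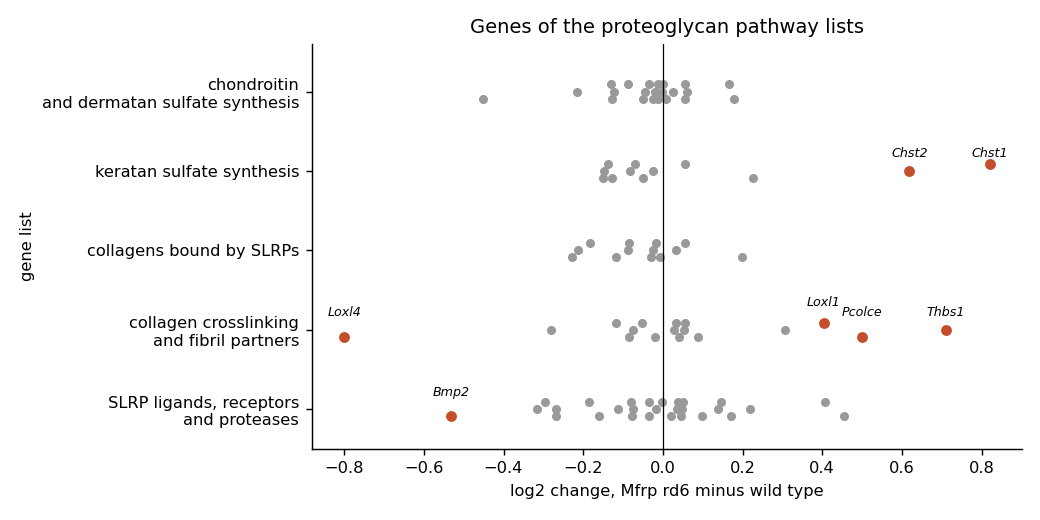
Log2 change (Mfrp rd6 minus wild type) of each gene in 5 lists around the SLRPs, with 1 point per gene and vertical offsets only to separate points. Red, named points passed the limma threshold: Chst1 and Chst2, Thbs1, Pcolce, Loxl1 and Loxl4, and Bmp2.

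Markers of other cells moved between the same arrays. The mean of 15 microglia and macrophage markers was 7.29 to 7.39 in wild type and 8.89 to 9.47 in Mfrp rd6. By limma 12 of the 15 rose, and 14 had an unadjusted p under 0.05. Of all genes 2.15% were called in either direction, and 15.4% had an unadjusted p under 0.05. Tyrobp, an adaptor of myeloid receptors, rose by 3.18, C1qc by 3.11, C1qb by 3.09 and Fcer1g by 2.96, while the changes of Itgam (-0.12) and Csf1r (0.40) did not pass. The mean of 16 skeletal muscle markers was 6.69 to 7.74 in wild type, with replicate 3 the highest, and 7.79 to 8.66 in Mfrp rd6. All 16 had a positive change, with a median of 1.28, and 15 had an unadjusted p under 0.05 (15.4% of all genes did). By limma 4 of the 16 passed, all higher (the calcium pump Atp2a1 by 2.21, Pvalb by 2.18, Myh4 by 1.84 and Ttn by 1.40), while Ckm, at 1.71, did not pass (limma adjusted p = 0.0571). With that muscle mean as a covariate Dcn changed by -0.75 (limma adjusted p = 0.557) and Bgn by 0.75 (adjusted p = 0.270), and none of the 7 called genes of the pathway lists passed either. Their changes in that fit were 0.72 for Chst1, 0.45 for Pcolce, 0.48 for Chst2, 0.43 for Thbs1 and 0.19 for Loxl1, each smaller than without the covariate, and -1.13 for Loxl4 and -0.61 for Bmp2, each larger in size. In that fit 45 genes of all tested passed, and the standard error for Dcn was 0.29 against 0.15 without the covariate. The mean of 12 choroidal endothelial markers was 7.003 to 7.44 in wild type and 7.36 to 7.73 in Mfrp rd6. Of the 12, 11 had a positive change (median 0.39) and 10 an unadjusted p under 0.05. The groups did not overlap for 7 of them, beside 15.3% of all genes. By limma 2 passed as higher (Plvap by 0.57 and Tek by 0.55) and 1 as lower (Ramp2, -1.60), and Emcn, at 0.82, did not pass (limma adjusted p = 0.149). The part of microglia and of endothelium in the changes of Dcn and Bgn was not tested.

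Fibroblasts are the usual source of decorin and biglycan, and their part in the changes of Dcn and Bgn was not tested. The mean of 18 fibroblast and stromal markers overlapped between the groups. It was 7.459 to 7.568 in wild type and 7.521 to 7.598 in Mfrp rd6, although its genes differed in both directions. Of the 18, 7 had a positive and 11 a negative change (-0.40 to 0.93, median -0.065). An unadjusted p under 0.05 was found for 9 (15.4% of all genes), and 10 did not overlap between the groups (15.3% of all genes). By limma 3 passed, all higher, beside 2.15% called over all genes. They were the growth factor Igf1 (0.93), the surface protein Cd34 (0.65) and Pcolce (0.50), while the fibulin Fbln1 differed by 0.03. Of the 7 fits that left out 1 array, Igf1 passed in 7, Pcolce in 6 and Cd34 in 3. Among the 11 with a negative change, Col1a1 (-0.23) and Col1a2 (-0.21) did not pass. The mean of 10 mural cell markers was 7.600 to 7.886 in wild type and 7.715 to 7.988 in Mfrp rd6. Of these 5 had a positive and 5 a negative change (-0.46 to 1.47), and 5 an unadjusted p under 0.05. By limma 1 passed (Kcnj8, 0.66), with Acta2 (-0.035) and Notch3 (-0.14) not called. None of 15 tendon and cartilage markers passed (limma), with 2 at an unadjusted p under 0.05, means of up to 6.75 and 6.86 in the groups, and changes of 0.28 for Sox9 and 0.27 for Thbs4. Of 9 corneal epithelium markers 0 passed (1 at an unadjusted p under 0.05), with means of 10.92 to 11.07 and 10.82 to 10.95 and changes of 0.012 for Krt5 and -0.081 for Krt15.

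Among RPE markers 0 of 12 rose and 2 fell (Rdh10, -0.54, and Lrat, -0.40), with 3 at an unadjusted p under 0.05 and list means of 11.60 to 11.73 and 11.45 to 11.60. Over all genes 2.15% were called by limma and 15.4% had an unadjusted p under 0.05. The remaining marker lists held 0 called genes by limma. At an unadjusted p under 0.05 there were 4 of 12 for rods (means of 6.69 to 7.86 and 6.48 to 6.80), 1 of 7 for Schwann cells (8.33 to 8.52 and 8.29 to 8.35), 2 of 9 for melanocytes (9.58 to 9.70 and 9.66 to 9.81), 3 of 9 for glia and inner retina (6.90 to 7.28 and 6.75 to 6.85) and 1 of 10 for lens. All 12 rod markers had a negative change (median -0.57), and 9 of 10 lens markers a positive one (median 0.33). The brightest genes of these lists did not pass: Gnat1 (-0.67) and Rom1 (-0.48) of rods, Mal (-0.18) and Pmp22 (-0.047) of Schwann cells, Dct (-0.0025) and Tyrp1 (0.17) of melanocytes, Glul (-0.062) and Prkca (-0.26) of glia and inner retina, and Crybb2 (0.41) and Crybb1 (0.25) of lens.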

How the data were processed

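The authors deposited 1 table of log2 values for 35556 probe sets and 7 whole-transcript arrays, made with Affymetrix Expression Console and RMA, per the submitters' processing notes. Their versions and library files: not given in the sources used here. The log2 values lay between 1.91 and 13.81, and the number of arrays limits the precision (median standard error of a change 0.088). Scanner values and slides were not used here. Names came from the array platform's annotation, possibly outdated: 21789 probe sets had 1 symbol, 1621 several and 12146 none. Probe sets with 1 symbol were used, the one with the highest mean per gene, which left 19938 genes.

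Samples were grouped by title. The difference between Mfrp rd6 and wild type was fitted per gene in R 4.3.3 with limma 3.58.1 (functions lmFit and eBayes; residual degrees of freedom 5, prior 4.56), with no filter and no block. Benjamini-Hochberg adjustment of the p-values covered every gene tested. The fit was tested on simulated data. The members and the 20 lists (263 of 275 entries measured) were chosen with earlier results of these data known. Named were all members and related family genes, up to 4 called genes or else the brightest of each pathway list, up to 4 called and the 2 brightest genes of each marker list, and the genes most correlated with the member mean. Alternatives changed normalization, filters, moderation, array weights, probe set choice, the replicate block, a muscle covariate and the arrays used. Tables and figures were made with Python 3.11.15, pandas 2.3.3 and matplotlib 3.10.9. Sequences came from RefSeq (GRCm38.p6).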

Additional observations from a re-analysis of the deposited data

Results flagged for a closer look

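Of 78 genes and marker list means checked among the 4 wild-type arrays, 4 had 1 array far from the others (gap over range above Dixon's critical value). That is close to the share that chance flags, about 1 in 20. No SLRP member was among the flagged items. Fam20b, the xylose kinase of chain synthesis, read 9.95 on wild-type replicate 1 and 10.15 to 10.17 on the others. Wild-type replicate 3 stood apart for the other 3. Kcnj8 read 8.18 there against 7.68 to 7.76, and Ttn 6.91 against 6.02 to 6.11. Rgr read 13.37 against 13.35 on each of the other wild-type arrays, a small step whose flag rests on those tied values.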

How the results depend on the processing

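In all 17 alternatives Dcn stayed lower and Bgn higher in Mfrp rd6, but Dcn passed in 13 and Bgn in 8. The count of members called higher (1) was 2 with quantile normalization or only genes above the median level, 3 with a variance trend and robust moderation, and 0 with array weights, the muscle covariate, or wild-type replicate 3 and Mfrp rd6 replicate 2 both left out. Leaving out each array in turn gave 0 to 2 higher and 0 to 1 lower. The count lower (1) was 0 with the muscle covariate, with both arrays left out, and without Mfrp rd6 replicate 1 or 2. Without Mfrp rd6 replicate 1, the only 12-week sample by the growth protocol, 0 members were called higher and 0 lower. The member median change was 0.22 with either filter, since the 4 dim members dropped out. Over all genes 429 were called; the count was 718 with trend and robust moderation, 679 with array weights, 45 with the muscle covariate, 193 with both arrays left out and 211 to 325 with each array left out in turn.

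The replicate numbers were not shown to pair samples: same-numbered samples' deviations correlated at -0.30, -0.07 and 0.04. With the replicate block 226 genes were called; Bgn did not pass (0.57, limma adjusted p = 0.0837) and Prelp passed (0.73, adjusted p = 0.0382). In that block fit 1 keratan sulfate gene, 2 crosslinking genes and 0 ligands or receptors were called, and Fmod changed by 0.13 and Ogn by 0.023.

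For keratan sulfate genes (2) the count was 0 with the muscle covariate, 1 with both arrays left out and 1 to 2 with each left out. For crosslinking genes (4) it was 0, 2 and 1 to 4. For ligands, receptors and proteases (1) it was 0 with the covariate and with both left out, 2 with a level of at least 6 or array weights, and 3 above the median level or with trend and robust moderation. Signs of unchanged-looking members turned: Fmod was 0.038 with quantile normalization, 0.36 with the covariate, 0.087 with both left out and -0.14 to 0.17 with each left out; Ogn was 0.029, -0.25, 0.018 and -0.09 to 0.05; Lum was -0.017 with array weights and -0.0050 to 0.19 with each left out. The cause of these differences was not tested. RMA values near the array floor limit what can be said of Lum, Kera, Aspn and Omd.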
